A study of Mus musculus with 6 samples.

Results

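The genes described here are 36 members of the tumour necrosis factor (TNF) superfamily and its signalling machinery, read from a table of 55401 mouse genes. They were taken by symbol, and all 36 were found. They comprise 14 ligands, 14 receptors, 6 adaptors (Traf1 to Traf5 and Tradd) and 2 inhibitors (Tnfaip3 and Tnip1). RNA was sequenced from RAW264.7 cells, a macrophage-like line grown out of a virus-induced mouse tumour, labelled wild type. Of the 6 libraries, 3 came from cells given MoS2 (molybdenum disulfide, a layered metal sulfide) at 6.25 µg/ml and 3 from cells given PBS. All were grown in DMEM with fetal bovine serum and antibiotics. No exposure time is given. The labels leave unsaid whether the libraries of a group came from separate cultures, so the p-values reflect the spread between these libraries, which may be technical. The question is how these genes differ in level between MoS2-treated and PBS-treated macrophages.

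TNF superfamily ligands are mostly trimeric membrane proteins, some of which are cut off the cell surface, and they bind receptors with cysteine-rich outer domains. Receptors with a death domain can recruit adaptors such as TRADD and FADD and lead to cell death, while most receptors recruit TRAF proteins and activate NF-kB and MAP kinases. In macrophages TNF is a main product of inflammatory activation, and A20 (Tnfaip3) with its partner Tnip1 limits the signal.

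Total counts per library ran from 15767618 to 18412762 with MoS2 and from 17008020 to 17695883 with PBS. Levels are given as counts per 1000000 reads (CPM) scaled by the TMM factors of edgeR, and log2 fold changes are MoS2 over PBS. A gene was called when its adjusted p was under 0.05, from edgeR's quasi-likelihood test with Benjamini-Hochberg adjustment over 12972 tested genes. Scaling by library totals alone lowers log2 fold changes by a median of -0.77 against TMM, so each direction below is given with that scaling where it changes. As a check of the label, 9 of 10 macrophage markers passed the low-count filter, with summed levels of 5196 to 5450 CPM with MoS2 and 7657 to 7836 CPM with PBS, and Mertk had at most 1 count in any library. Of these 9 markers 2 rose and 4 fell (library totals gave 2 higher and 7 lower). Summed markers of B cells, neutrophils, fibroblasts, epithelium and endothelium each lay below 1 CPM in every library. The T cell list reached 7.78 to 10.7 CPM with MoS2 and 4.09 to 4.43 CPM with PBS, nearly all of it Cd5, while Cd3d, Cd8a and Trac were at 0. The dendritic cell list reached 0.719 to 0.892 CPM with MoS2 and 1.91 to 4.09 CPM with PBS, mostly Zbtb46.

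Among the 36 genes, Tnf, Cd40, Traf4 and the receptor genes Tnfrsf10b, Tnfrsf12a, Fas and Tnfrsf26 were higher in MoS2-treated cells, and the receptors Tnfrsf1a, Ltbr, Tnfrsf13b and Tnfrsf14 together with Traf1, Traf2 and Tradd were lower. The low-count filter passed 28 of the 36. Of these, 13 rose, 12 fell and 3 were not called, against 38.3% of all tested genes called higher, 42.4% called lower and 80.7% called in either direction. The share called is thus close to that of the whole table, and the set as a whole had a median log2 fold change of 0.09, against -0.08 over all tested genes. By at least 1 on the log2 scale, 8 members rose (19.5% of all tested genes did) and 6 fell (23.7% of all tested genes). With library totals alone, 8 were called higher (18% of all tested genes) and 15 lower (67.7% of all tested genes). The same 8 rises and all 12 falls were called under both scalings. The 3 MoS2 and 3 PBS libraries did not overlap in CPM (TMM) in 25 of the 28 tested members, against 81.9% of all tested genes, and they overlapped in Lta, Tnfrsf22 and Traf3. In bulk RNA, a lower count may come from fewer cells that express a gene or from less RNA per cell, and these cannot be told apart.

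**Figure D1:**
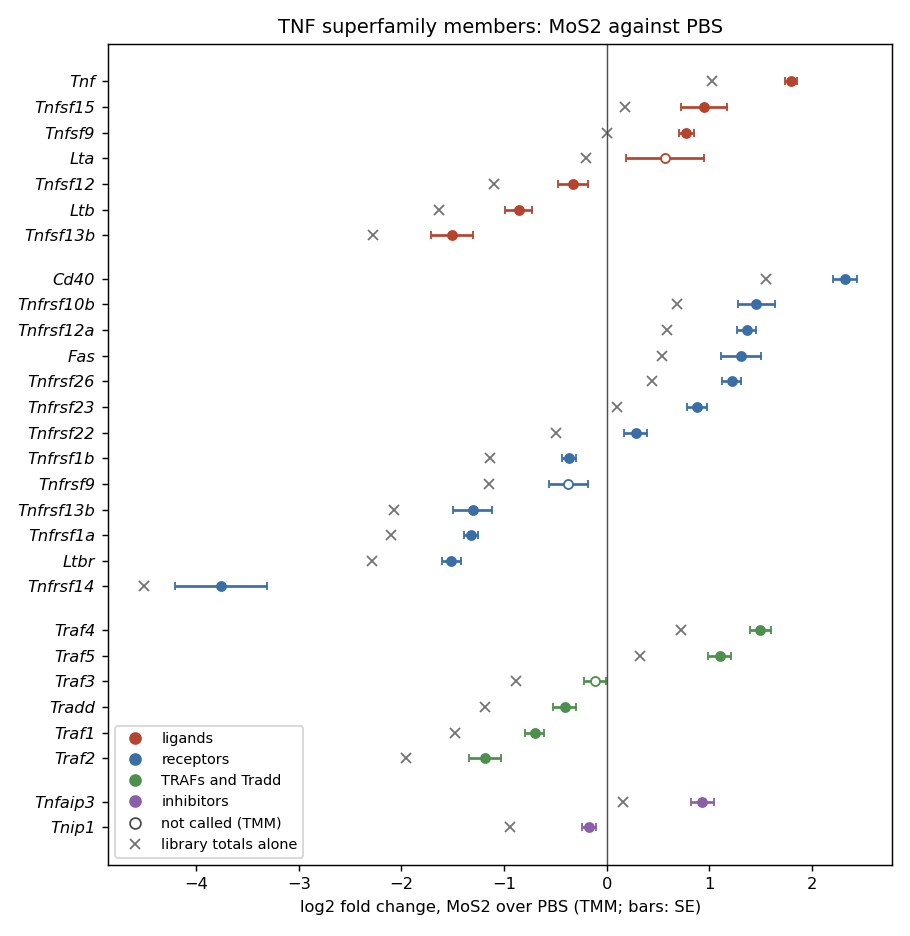
Log2 fold change of the 28 tested members (x axis, MoS2 over PBS) in rows by role, with filled circles for called genes, bars for the standard error (SE) and grey crosses for scaling by library totals. Cd40 stands highest at 2.32 and Tnfrsf14 lowest at -3.76, and each role holds rises and falls.

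The ligands were led by Tnf, the trimeric cytokine itself (ENSMUSG00000024401.14, GRCm38 chromosome 17, 35199381 to 35202007, minus strand). Tnf had 265, 268 and 275 CPM in the MoS2 libraries, against 78.0, 75.4 and 79.3 CPM in the PBS libraries. All 3 MoS2 libraries were above all 3 PBS libraries with little spread in either group. The rise was 3.47-fold, or 1.80 ± 0.06 on the log2 scale (SE, edgeR adjusted p = 1.05e-11) and 1.02 with library totals. Tnfsf9, the ligand of Tnfrsf9 that costimulates T cells, had 113, 118 and 121 CPM with MoS2, against 72.0, 61.8 and 72.1 CPM with PBS. Its rise of 0.78 ± 0.07 (edgeR adjusted p = 2.99e-07) became 0.01 and no call with library totals (edgeR adjusted p = 0.951). Tnfsf9 shares 14.9% of its exon bases with Gm11110 on the opposite strand, and the strand setting of the counting is not given. Tnfsf15, a ligand that acts on T cells, rose to 3.80 ± 0.43 CPM with MoS2, against 1.96 ± 0.12 CPM with PBS (SD, n = 3 each), a call that was also lost with library totals (0.18).

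Lta and Ltb, which encode the lymphotoxin chains, lie in the same cluster, with 1157 bases between Tnf and Lta and 3060 between Ltb and Tnf. Neither was called higher along with Tnf. Ltb had 19.2, 16.1 and 19.9 CPM in MoS2 libraries, against 40.1, 31.0 and 28.9 CPM in PBS libraries, and the groups did not overlap. It fell by 0.86 on the log2 scale (SE 0.13, edgeR adjusted p = 3.01e-05). Lta was low, at 2.08, 1.30 and 1.75 CPM with MoS2, against 1.39, 1.48 and 0.584 CPM with PBS. Its groups overlapped, its log2 fold change of 0.57 ± 0.38 was not called (edgeR adjusted p = 0.183), and with library totals the value was -0.20.

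The upstream sequences of Tnf and Ltb are shown because these neighbours moved in opposite directions. They were read from the 250 bases before the RefSeq start (GRCm38.p6, 5′ to 3′ on the gene's strand), without bases that GENCODE places in an exon, and matches to the NF-kB consensus are in capitals. Tnf lies on the minus strand (chr17:35202008-35202257) and Ltb on the plus strand (chr17:35194257-35194438).
Tnf: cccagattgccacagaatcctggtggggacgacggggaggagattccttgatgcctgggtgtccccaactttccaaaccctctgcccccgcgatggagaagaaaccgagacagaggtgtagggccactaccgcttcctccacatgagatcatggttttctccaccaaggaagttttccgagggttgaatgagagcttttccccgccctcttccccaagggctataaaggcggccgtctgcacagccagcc
Ltb: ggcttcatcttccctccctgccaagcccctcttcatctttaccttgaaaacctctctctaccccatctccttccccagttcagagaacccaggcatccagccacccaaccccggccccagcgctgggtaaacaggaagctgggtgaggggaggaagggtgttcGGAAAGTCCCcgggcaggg
The 250 bases of Ltb hold 1 match, which begins 87 bases before the start, and those of Tnf and Lta hold none. No match says only that these letters are not in this window.

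Tnfsf13b, which encodes the B cell survival factor BAFF, was lower with MoS2. It had 2.16, 2.43 and 1.90 CPM with MoS2, against 6.24, 5.43 and 6.79 CPM with PBS, and fell by 1.51 on the log2 scale (SE 0.20, edgeR adjusted p = 1.04e-05). Tnfsf12, which encodes the Tnfrsf12a ligand TWEAK, had 7.67, 8.11 and 7.24 CPM with MoS2, against 10.8, 9.60 and 8.49 CPM with PBS. Its value of -0.33 ± 0.14 on the log2 scale passed narrowly (edgeR adjusted p = 0.0484). The call was lost in 8 of 12 alternatives, among them RLE scaling factors (adjusted p = 0.0825) and leaving out any 1 library other than PBS replicate 3 (adjusted p = 0.0603 to 0.157). Tnfsf12 shares 48.25% of its exon bases with the read-through gene Tnfsfm13, so its count is uncertain.

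The other 7 ligands did not pass the filter. Tnfsf4, Tnfsf11 (RANKL, the osteoclast differentiation factor) and Fasl had 0 counts in all libraries, which allows up to 0.0778 CPM over the MoS2 libraries and 0.0438 CPM over the PBS libraries (3 counts per group, counting error only). Tnfsf10, the death ligand TRAIL, had 1 count in the MoS2 libraries and 20 in the PBS libraries (13, 2 and 5). The ratio of pooled counts was 0.0887 with an exact 95% counting interval of 0.00214 to 0.555. Tnfsf14 had 7 counts with MoS2 (1, 6 and 0 by library) and 36 with PBS (15, 10 and 11). Its ratio of pooled counts was 0.345 with an interval of 0.130 to 0.786, but its groups overlapped in CPM with TMM. Tnfsf8 had 6 and 23 counts in MoS2 and PBS libraries and Tnfsf13 had 14 and 36, with intervals that include 1 under TMM (0.154 to 1.17 and 0.344 to 1.31) and lie below 1 with library totals (0.0901 to 0.684 and 0.201 to 0.766). These intervals cover counting error only. Tnfsf13 shares 60.05% of its exon bases with Tnfsf13os and Tnfsfm13, so its count is uncertain as well.

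Per kilobase of exon, Tnf and Tnfsf9 made up most of the ligand RNA. Here and below the length is the deposited gene length, and the lengths of the transcripts expressed were not measured. Tnf took 59.7% ± 0.2 of the summed ligand level per kilobase with MoS2 and 36% ± 1.7 with PBS (SD, n = 3 each). Tnfsf9 took 33.1% ± 0.5 with MoS2 and 40.4% ± 2.0 with PBS, and Ltb 4.41% ± 0.45 with MoS2 and 16.7% ± 2.2 with PBS. Thus Tnf ranked first in MoS2 libraries and second, behind Tnfsf9, in PBS libraries.

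**Figure D2:**
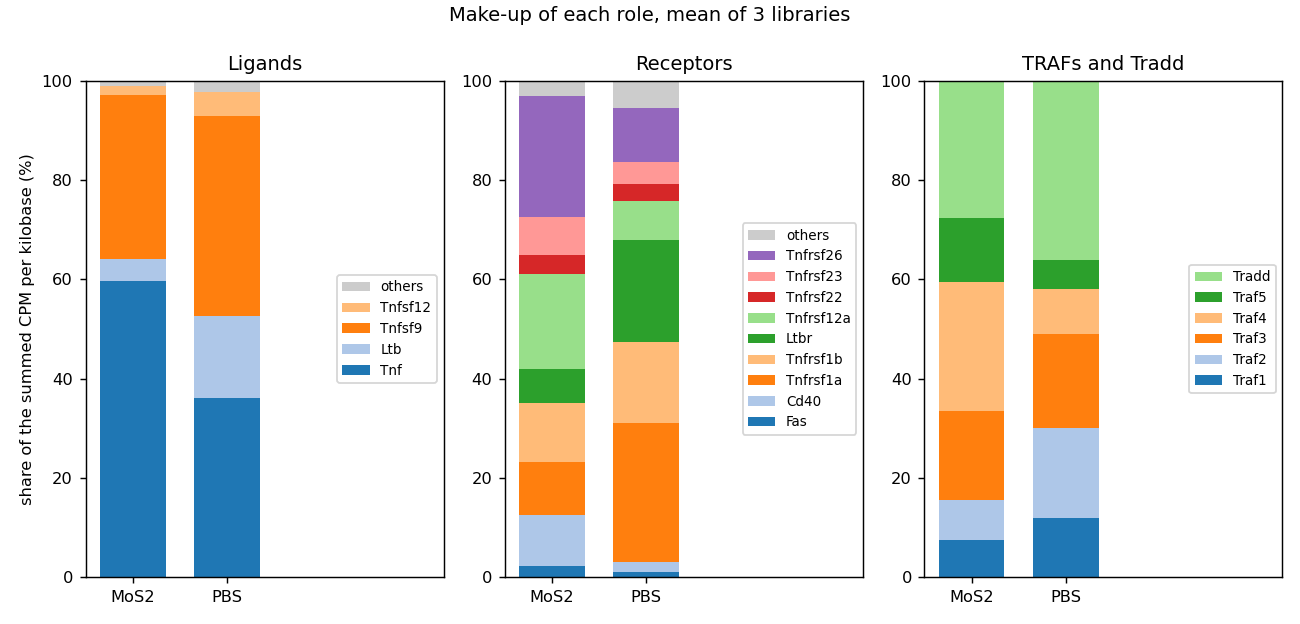
Share of each gene (y axis, %) in the summed CPM per kilobase of its role, as the mean of 3 libraries, with MoS2 left and PBS right in each panel. Tnf widens to 59.7% of the ligand level, and Tnfrsf26 and Tnfrsf12a take the place of Tnfrsf1a and Ltbr as the most abundant receptors per length.

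The receptors divided into 7 that rose and 5 that fell of 13 tested, with Tnfrsf9 not called and Tnfrsf21 at 0 counts throughout. Cd40, the receptor through which T cells activate macrophages (ENSMUSG00000017652.16, GRCm38 chromosome 2, 165055627 to 165072948, plus strand), rose most. It had 42.1, 42.5 and 45.6 CPM with MoS2, against 7.68, 7.99 and 10.4 CPM with PBS. The groups were far apart, a 5.00-fold rise or 2.32 ± 0.12 on the log2 scale (edgeR adjusted p = 3.53e-10), and 1.55 with library totals. Tnfrsf12a, the TWEAK receptor, had 46.8, 43.4 and 46.5 CPM with MoS2, against 18.1, 19.4 and 15.5 CPM with PBS. That rise of 1.36 ± 0.10 (edgeR adjusted p = 1.18e-08) stands beside the small fall of its ligand gene, whose call most alternatives lost.

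Of the 3 tested receptor genes with a death domain, Fas and Tnfrsf10b rose and Tnfrsf1a, described below, fell. Fas, which triggers apoptosis when bound by Fas ligand, had 5.43, 5.43 and 5.41 CPM with MoS2, against 2.13, 2.21 and 2.20 CPM with PBS, and rose by 1.31 ± 0.20 on the log2 scale (edgeR adjusted p = 2.84e-05). Tnfrsf10b, the mouse death receptor for TRAIL, had 9.02, 7.05 and 8.70 CPM with MoS2, against 2.60, 3.34 and 3.06 CPM with PBS, and rose by 1.46 ± 0.18 (edgeR adjusted p = 4.69e-06). With library totals Fas and Tnfrsf10b had log2 fold changes of 0.54 and 0.69 and were still called. Their ligand genes Fasl and Tnfsf10 were at 0 and near 0 in the same libraries.

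Tnfrsf26, Tnfrsf22 and Tnfrsf23 lie side by side on chromosome 7. In mice, Tnfrsf22 and Tnfrsf23 encode receptors that bind TRAIL but lack a death domain. Tnfrsf26 had 91.6, 97.7 and 99.1 CPM with MoS2, against 47.6, 39.9 and 36.5 CPM with PBS, a rise of 1.22 ± 0.09 (edgeR adjusted p = 2.29e-08). Tnfrsf23 had 35.1, 38.7 and 37.6 CPM with MoS2, against 18.1, 20.1 and 22.5 CPM with PBS (0.88 ± 0.10), and lost its call with library totals (0.11). The groups of Tnfrsf22 overlapped, at 18.4, 20.8 and 22.3 CPM with MoS2, against 16, 15.6 and 19.1 CPM with PBS. Its difference of 0.28 ± 0.12 on the log2 scale (edgeR adjusted p = 0.0370) turned to -0.49 with library totals, where it was called lower. The call was also lost with no low-count filter (0.20, adjusted p = 0.163), without MoS2 replicate 2 (0.28) or 3 (0.22) and without PBS replicate 1 (0.24) or 2 (0.22). Of all stretches of 75 bases in Tnfrsf22 transcripts, 20.8% also occur in transcripts of other genes, chiefly Tnfrsf23, so the division of reads between these 2 genes is uncertain.

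The receptors of TNF and lymphotoxin were lower. Tnfrsf1a, the death domain receptor that carries most TNF signalling (ENSMUSG00000030341.17, GRCm38 chromosome 6, 125349362 to 125362484, plus strand), had 33.4, 34.5 and 33.1 CPM with MoS2, against 84.3, 85.8 and 83.2 CPM with PBS. Each group was tight, and Tnfrsf1a was 2.51-fold lower with MoS2 (-1.33 ± 0.07 on the log2 scale, edgeR adjusted p = 5.44e-10). Ltbr, the lymphotoxin beta receptor on the same chromosome, with 35476 bases between the genes, had 20.4, 18.6 and 19.8 CPM with MoS2, against 62.0, 52.7 and 53.4 CPM with PBS (-1.52 ± 0.09, edgeR adjusted p = 2.53e-09). The second TNF receptor gene, Tnfrsf1b, which has no death domain, fell less, to 56.7, 53.7 and 58.6 CPM with MoS2, against 72.3, 72.8 and 72.6 CPM with PBS (-0.36 ± 0.07, edgeR adjusted p = 1.99e-04). That call was lost once each library's trend on gene length was removed (-0.14, adjusted p = 0.0545).

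Tnfrsf14, a receptor for LIGHT and lymphotoxin alpha, had the largest fall of all members. It had 1, 2 and 5 counts in the MoS2 libraries, against 54, 68 and 75 counts in the PBS libraries, or 0.203 ± 0.147 CPM with MoS2 and 2.89 ± 0.52 CPM with PBS (SD, n = 3 each). On the log2 scale this was -3.76 ± 0.45 (edgeR adjusted p = 2.98e-06), and leaving out 1 library gave -4.50 (without MoS2 replicate 3) to -3.39. The MoS2 level rests on 8 counts in all. Tnfrsf13b encodes TACI, a receptor for BAFF. It had 2.32, 2.59 and 2.27 CPM with MoS2, against 5.64, 6.04 and 6.07 CPM with PBS. The fall was 1.30 on the log2 scale (SE 0.19, edgeR adjusted p = 2.11e-05). Tnfrsf9 had 3.19, 3.57 and 3.44 CPM with MoS2, against 4.55, 4.30 and 4.36 CPM with PBS. Although its groups did not overlap, its log2 fold change of -0.37 ± 0.19 was not called (edgeR adjusted p = 0.0819), but it was with library totals (-1.14).

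Per kilobase, the order of the receptors differed between the groups. With MoS2, Tnfrsf26 came first (29.9 ± 1.2 CPM per kilobase, SD, n = 3), then Tnfrsf12a (23.6 ± 1.0), Tnfrsf1b (14.8 ± 0.6), Tnfrsf1a (13.0 ± 0.3) and Cd40 (12.7 ± 0.6), where Tnfrsf1a and Cd40 lay within their spread. With PBS, the order was Tnfrsf1a (32.6 ± 0.5), Ltbr (23.8 ± 2.2), Tnfrsf1b (19.0 ± 0.1) and Tnfrsf26 (12.8 ± 1.8). The receptor genes together had 122.9 ± 2.8 CPM per kilobase with MoS2 and 116.4 ± 2.7 with PBS (TMM), a direction that turned with library totals, at 93.9 ± 1.1 with MoS2 and 151.9 ± 3.3 with PBS.

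**Figure D3:**
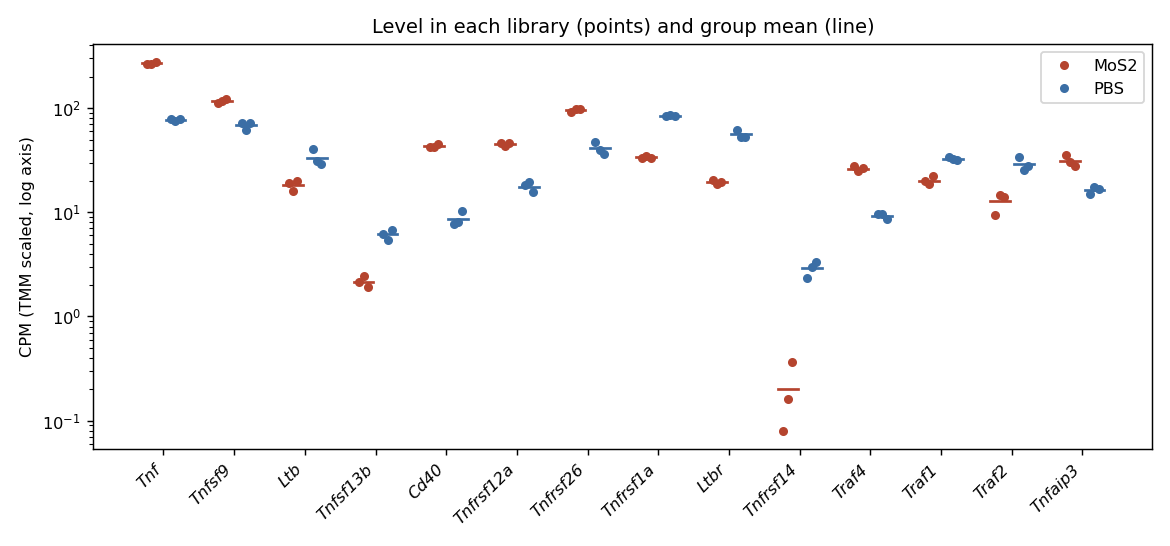
CPM on a log axis for 14 members, with 1 point per library, a line at the group mean and MoS2 left of PBS for each gene. Tnf lies at 265 to 275 CPM with MoS2, above 75.4 to 79.3 CPM with PBS, while Tnfrsf1a lies at 33.1 to 34.5 CPM with MoS2, below 83.2 to 85.8 CPM with PBS; Lta, Tnfrsf22 and Traf3, whose groups overlap, are not plotted.

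Of the adaptors, Traf4 and Traf5 rose, Traf1, Traf2 and Tradd fell, and Traf3 was not called. Traf4 had 27.7, 24.9 and 26.4 CPM with MoS2, against 9.67, 9.56 and 8.72 CPM with PBS, a rise of 1.5 ± 0.10 (edgeR adjusted p = 1.11e-08). Traf5, which acts beside Traf2 at several receptors, had 18.4, 18.3 and 18 CPM with MoS2, against 9.11, 8.47 and 7.91 CPM with PBS (1.10 ± 0.11, edgeR adjusted p = 6.89e-07). The library totals gave 0.73 for Traf4 and 0.33 for Traf5, both still called. Traf1, which has no RING domain and binds Traf2, had 19.9, 18.6 and 22.1 CPM with MoS2, against 34.3, 32.5 and 31.8 CPM with PBS, and fell by 0.70 on the log2 scale (SE 0.09, edgeR adjusted p = 8.57e-06). Traf2, which brings ubiquitin ligases to the receptors, had 9.50, 14.7 and 14.1 CPM with MoS2, against 33.9, 25.6 and 27.7 CPM with PBS (-1.19 ± 0.15, edgeR adjusted p = 6.15e-06). Both fell in all 3 MoS2 libraries relative to every PBS library.

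Tradd, the adaptor that binds the death domain of the first TNF receptor, had 16.5, 13.7 and 17.4 CPM with MoS2, against 21.7, 22.5 and 19.2 CPM with PBS (-0.41 ± 0.12, edgeR adjusted p = 0.00477). Traf3, which keeps the alternative NF-kB pathway in check, had 39.1, 42.0 and 40.5 CPM with MoS2, against 35.6, 48.0 and 47.6 CPM with PBS. PBS replicate 1 lay below the MoS2 libraries while the other two lay above them, and the log2 fold change of -0.11 ± 0.11 was not called (edgeR adjusted p = 0.356). Without PBS replicate 1 it was -0.24 and called (adjusted p = 0.0101), with library totals -0.88 and called, and with the gene length trend removed 0.24 and called higher. Per kilobase, Tradd was the most abundant adaptor in both groups, at 8.51 ± 1.04 with MoS2 and 11.3 ± 0.9 with PBS. Traf4 came next with MoS2 (8.0 ± 0.43), within the spread of Tradd, and next to last with PBS (2.83 ± 0.16).

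Tnfaip3, which encodes the ubiquitin-editing enzyme A20, had 35.6, 30.6 and 28.0 CPM with MoS2, against 15.0, 17.6 and 16.7 CPM with PBS. All MoS2 libraries were above all PBS libraries, and the gene rose by 0.93 ± 0.11 on the log2 scale (edgeR adjusted p = 2.43e-06). With library totals the value was 0.16 and the call was lost (adjusted p = 0.194). Tnip1, an A20-binding protein, had 105, 95.8 and 107 CPM with MoS2, against 116, 113 and 118 CPM with PBS. That small fall, -0.17 ± 0.07, passed in the TMM fit (edgeR adjusted p = 0.0258). The call was lost with RLE factors (adjusted p = 0.0783), with DESeq2 (DESeq2 adjusted p = 0.112) and with a replicate term (adjusted p = 0.0570). It was also lost without MoS2 replicate 1 (adjusted p = 0.0528) or 2 (adjusted p = 0.133). With the length trend removed the value was 0.02 and not called.

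Tnfaip3 was called higher and Tnip1 lower with TMM, and neither call held in every alternative. The upstream sequences of both inhibitors are shown because they hold NF-kB consensus matches (capitals). They come from the same window on GRCm38.p6, 5′ to 3′ and again without exon bases, for Tnfaip3 at chr10:19015411-19015547 and Tnip1 at chr11:54962941-54963190, both on the minus strand.
Tnfaip3: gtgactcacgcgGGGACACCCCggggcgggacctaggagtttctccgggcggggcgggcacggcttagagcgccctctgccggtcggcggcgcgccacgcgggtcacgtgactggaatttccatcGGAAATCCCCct
Tnip1: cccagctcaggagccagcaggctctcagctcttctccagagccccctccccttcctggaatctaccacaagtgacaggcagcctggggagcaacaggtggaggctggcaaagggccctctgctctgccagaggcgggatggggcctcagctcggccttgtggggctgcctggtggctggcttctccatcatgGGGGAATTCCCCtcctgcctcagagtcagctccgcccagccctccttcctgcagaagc
RefSeq entries were found for 28 of the 36 members, 31 entries in all. Tnfsf4, Tnfsf9, Tnfsf12, Cd40, Tnfrsf10b, Tnfrsf22, Tnfrsf26 and Tradd had no entry and were not searched. The NF-kB consensus, of 10 letters and searched on both strands, matched 5 of these entries (16.1%), against 3.9% of 32851 upstream windows of the same length. Tnfaip3 holds 2 matches, 125 and 12 bases before the start of the entry shown, and AP-1 lies 136 bases before it. A second Tnfaip3 entry holds no match, and the GENCODE gene begins at 19015657 on the minus strand, upstream of the stretch shown. Of the 31 entries, 20 begin where a GENCODE transcript does. The 3 matches of Tnip1 overlap, as do the 2 of Tnfrsf9, whose other entry holds none. Apart from Ltb, Tnfaip3 and Tnip1, the matched members were Tnfrsf9 and Traf3, so of the 5 genes 1 rose, 2 fell and 2 were not called. The AP-1 motif TGANTCA matched 6 entries (19.4%), against 6.75% of all windows, in Tnfsf13, Tnfsf13b, Tnfsf14, Fas, Tnfrsf9 and Tnfaip3. A match in a window is a description and not evidence of binding.

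Ratios of members within a library do not depend on the scaling between libraries. They were not corrected for each library's trend on gene length, which can shift them. The 13 pairs plotted were chosen after the values were seen and are given without a test. Counted per kilobase, the ratio of Tnf to Tnfrsf1a was 12.6, 12.3 and 13.1 in the MoS2 libraries, against 1.46, 1.39 and 1.51 in the PBS libraries, a mean ratio 8.71-fold higher with MoS2. Tnf to Tnfrsf1b stood at 11.2 ± 0.4 with MoS2 and 2.49 ± 0.07 with PBS (SD, n = 3 each). Both TNF receptor genes thus had fewer reads per Tnf read with MoS2. Tnfrsf1a to Tnfrsf1b was 0.883 ± 0.058 with MoS2 and 1.71 ± 0.02 with PBS, so the more abundant of these receptor genes per length changed. The MoS2 ratio is near 1, so that order depends on the gene lengths used.

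Other ligand and receptor pairs moved in both directions. Tnfsf12 to Tnfrsf12a was 0.215 ± 0.021 with MoS2 and 0.696 ± 0.065 with PBS, and Tnfsf9 to Tnfrsf9 was 73.1 ± 2.7 with MoS2 and 32.8 ± 2.3 with PBS. The ratio of Tnfsf13b to Tnfrsf13b overlapped between groups, at 0.385, 0.387 and 0.346 with MoS2, against 0.457, 0.371 and 0.462 with PBS. Cd40 to Tnfrsf1a was 0.981 ± 0.059 with MoS2 and 0.0783 ± 0.0144 with PBS. Traf4 to Traf1 was 3.51 ± 0.27 with MoS2 and 0.759 ± 0.027 with PBS.

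**Figure D4:**
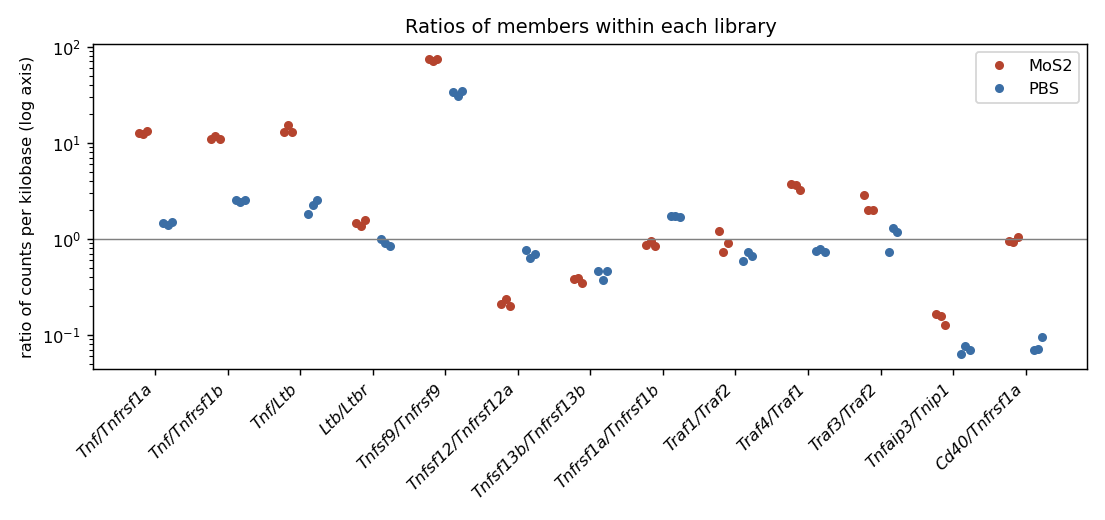
Ratio of 2 members within each library (y axis, log scale, counts per kilobase of the first gene over the second), with 3 points per group and MoS2 left of PBS. The Tnf to Tnfrsf1a ratio lies between 12.3 and 13.1 with MoS2, above the PBS libraries at 1.39 to 1.51.

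Other genes of the pathway were described in 6 lists. Their counts are to be read beside all tested genes, of which 38.3% were called higher and 42.4% lower with TMM. With library totals these shares were 18% and 67.7%. Of ligand processing and shedding genes, 3 rose and 5 fell of 8 tested, with a median log2 fold change of -0.95 (0 higher and 7 lower with library totals). Adam17, the protease that releases TNF and its receptors from the cell surface, had 88.8 ± 6.4 CPM with MoS2 and 337.9 ± 1.1 CPM with PBS (SD, n = 3 each), or -1.93 ± 0.07 on the log2 scale (edgeR adjusted p = 1.46e-11). The related protease Adam10 had -2.03 ± 0.07 and the intramembrane protease Sppl2b -1.46 ± 0.09. The 3 genes of this list that rose with TMM were Rhbdf1 (0.95), Rhbdf2 (0.55) and Furin (0.22). The level of Adam17 was thus lower in the libraries where Tnf was higher, and any effect on shedding was not tested.

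Kinases and ubiquitin ligases of the receptor complex numbered 18, of which 6 rose and 8 fell (median -0.08), or 0 and 16 with library totals. Ripk1, the kinase bound to the first TNF receptor, had 11.4 ± 1.2 CPM with MoS2 and 45.2 ± 1.7 CPM with PBS (-1.99 ± 0.10, edgeR adjusted p = 3.17e-10). Birc3, a ubiquitin ligase that TRAF2 brings to the receptor, had 24.3 ± 1.4 CPM with MoS2 and 86.0 ± 4.1 CPM with PBS (-1.82 ± 0.08), and Tab2, a subunit of the TAK1 kinase complex, had -0.83 ± 0.06. These 3 were named for the smallest adjusted p of the list, so their shared direction does not describe the list. They were lower, as were Tnfrsf1a, Traf1, Traf2 and Tradd. The 6 that rose with TMM were Map3k8 (0.83), Ube2n (0.59), Rnf31 (0.43), Birc2 (0.34), Chuk (0.28) and Sharpin (0.22).

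The death domain arm had 4 genes higher and 2 lower of 7, with a median of 0.76 (3 higher and 3 lower with library totals). Mlkl, the executioner of necroptosis, had 54.1 ± 5.2 CPM with MoS2 and 9.25 ± 1.36 CPM with PBS (2.55 ± 0.11, edgeR adjusted p = 1.36e-10). Cflar, an inhibitor of caspase-8 activation, and Faf1, which binds Fas, rose by 1.23 ± 0.08 and 1.27 ± 0.07. Fadd, named after its value was seen, had the largest fall of this list at -3.13 (edgeR adjusted p = 1.96e-08). The death receptor genes Fas and Tnfrsf10b were thus higher while their adaptor gene was lower.

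Among deubiquitinases and A20 partners 4 rose and 4 fell of 10 (median 0.03), or 1 and 9 with library totals. Otulin, which removes linear ubiquitin chains, rose by 1.08 ± 0.07, while Tnip3, related to Tnip1, and Spata2, which links CYLD to the receptor complex, had -1.23 ± 0.10 and -1.21 ± 0.10. In the list of other TRAFs and TRAF partners 4 rose and 4 fell of 9 (median 0.00), or 0 and 8 with library totals. Its lowest value was that of Tifa, a TRAF6-binding adaptor, at 10.3 ± 0.9 CPM with MoS2 and 52.5 ± 1.8 CPM with PBS (-2.34 ± 0.09, edgeR adjusted p = 4.84e-11). Traf3ip1 had -0.79 ± 0.12, and Traf7 had 0.41 ± 0.07, or -0.36 with library totals.

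Of the 18 remaining family ligands and receptors 6 were tested, with 1 higher and 4 lower (median -0.91). Eda2r, the ectodysplasin A2 receptor and a known p53 target, had 11.9 ± 0.8 CPM with MoS2 and 2.80 ± 0.47 CPM with PBS (2.09 ± 0.17, edgeR adjusted p = 4.81e-08). Tnfrsf17, a receptor of B lineage cells, was low, at 0.0510 ± 0.0443 CPM with MoS2 and 1.22 ± 0.36 CPM with PBS, and Cd27, better known from lymphocytes, had 0.643 ± 0.419 CPM with MoS2 and 2.06 ± 0.29 CPM with PBS. The part of the T cell, B cell or dendritic cell marker levels given above in these results was not tested. Over all 12972 tested genes the median log2 fold change was -0.08 with TMM and -0.85 with library totals, and these list medians are to be read beside it.

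**Figure D5:**
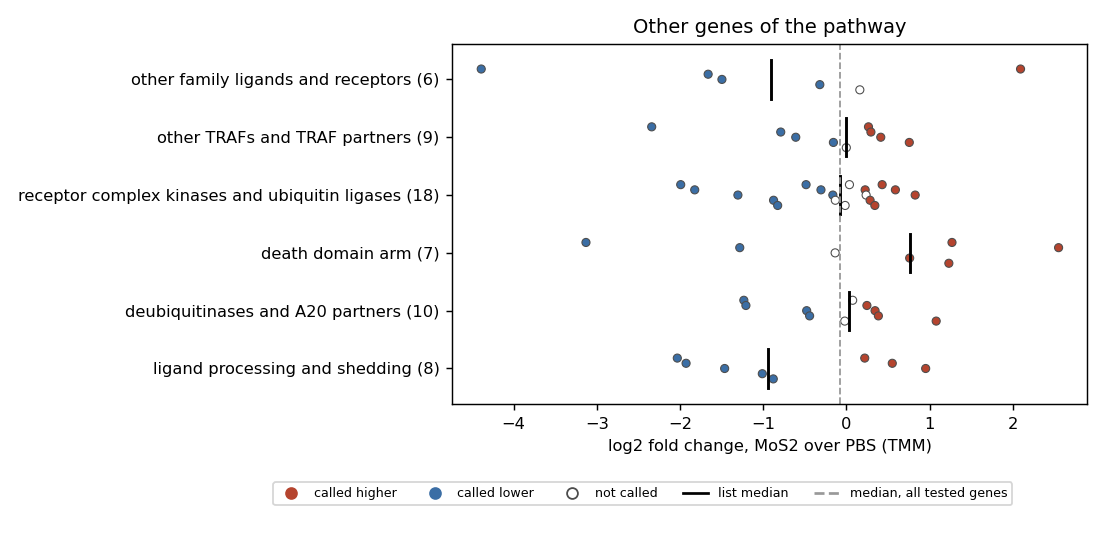
Log2 fold change (x axis, MoS2 over PBS, TMM) of each tested gene in 6 lists (rows, number tested in brackets), coloured by call, with a black bar at the list median and a dashed line at the median of all tested genes. Ligand processing genes have a median of -0.95 and the death domain arm one of 0.76, with genes on both sides of 0 in every list.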

How the data were processed

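Gene expression was measured by RNA sequencing of 6 libraries. The authors deposited raw counts of reads for each gene, with exon coordinates and gene lengths. The submitters' processing notes list featureCounts 1.6.1, HISAT2 2.1.0 and fastp 0.20.0, and they name GRCh38, a human build, but the identifiers are mouse, and 54349 of 55401 occur in GENCODE M21 (GRCm38) with identical coordinates, which are used here. Columns were matched by the letter M or c and the replicate number. How the counting treated strand and multi-mapping reads is not stated in these sources.

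Counts were tested with edgeR 4.0.16 (quasi-likelihood F test, TMM factors, default low-count filter, treatment as the only term, prior count 0.125, R 4.3.3), with Benjamini-Hochberg adjustment over 12972 genes. The SE is the absolute log2 fold change over the square root of F and is approximate. The procedure was tested on simulated data. Alternatives were RLE factors, library totals, no filter, DESeq2 1.42.0, a replicate term, a length-trend offset, an adjusted p under 0.01 and leaving out each library. Replicates of a group differed by more than sampling noise (chi-square per degree of freedom 3.11 to 13.6).

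The members and lists were chosen with earlier results of these data known. All 36 members are accounted for, and of each other list the 3 tested genes with the smallest adjusted p are named. Promoter sequences are from RefSeq (GRCm38.p6).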

Additional observations from a re-analysis of the deposited data

How the results depend on the processing

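Of the 25 called members, 17 kept direction and call in all 12 alternatives run for each gene. These were Tnf, Fas, Cd40, Tnfrsf10b, Tnfrsf12a, Tnfrsf26, Traf4 and Traf5 (higher) and Ltb, Tnfsf13b, Tnfrsf1a, Ltbr, Tnfrsf13b, Tnfrsf14, Traf1, Traf2 and Tradd (lower). Of 336 gene values under alternatives, 24 lost a call, 4 gained one and 4 changed sign. With library totals alone, 8 members were called higher instead of 13, and over all genes 2334 were called higher and 8786 lower, against 4964 and 5502 with TMM. The sign changed with library totals for Lta (-0.20) and Tnfrsf22 (-0.49), and with the gene length trend removed for Traf3 (0.24) and Tnip1 (0.0246). Library totals differ from TMM by one factor per library, which moves all genes alike, and what lies behind the length trend was not tested. Leaving out 1 library gave 12 to 13 members higher and 10 to 12 lower, and 4843 to 5070 genes higher and 5334 to 5564 lower. Deviations from the group means had r of -0.02, -0.01 and -0.14 between same-numbered libraries. Between differently numbered libraries r ran from -0.12 to 0.15. With 3 libraries per group, this cannot show whether same-numbered libraries shared a culture or batch. With a replicate block, 13 members were called higher and 10 lower, and 4848 and 5355 genes. The members lost there were Tnfsf12 (adjusted p = 0.0716) and Tnip1 (adjusted p = 0.0570). Depth limits what can be said of the 8 untested members and of Tnfrsf14 and Lta.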

Other observations

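Genes near member clusters were read by position, within 50000 bases of the members, which selects them without regard to their values. Around Ltb, Tnf and Lta on chromosome 17, the other tested protein-coding genes had log2 fold changes of -1.12 to 0.57, against 1.80 for Tnf. Bag6, a chaperone, had 331 ± 14 CPM with MoS2 and 222 ± 7 CPM with PBS (SD, n = 3 each), a log2 fold change of 0.57, and the RNA helicase gene Ddx39b had 0.50. Both were called higher with TMM and lower with library totals (-0.20 and -0.27). Prrc2a, Aif1 and Nfkbil1 had -0.72, -1.12 and -0.29 and were called lower under both scalings. Lst1 was not called with TMM (-0.22) and was called lower with library totals (-0.995), and Atp6v1g2 was called under neither (0.10 with TMM and -0.67 with library totals). The snoRNA gene Gm25128 had 3.88 at 1.18 ± 0.32 CPM with MoS2 and 0.0739 ± 0.0683 CPM with PBS.

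Beside Tnfrsf26, Tnfrsf22 and Tnfrsf23 on chromosome 7, the cysteinyl-tRNA synthetase gene Cars rose by 0.44 with TMM and was called lower with library totals (-0.33). The antisense gene E230032D23Rik, which overlaps Tnfrsf23 and Tnfrsf26, had 0.968 ± 0.211 CPM with MoS2 and 1.17 ± 0.43 CPM with PBS and was not called with TMM (-0.28, edgeR adjusted p = 0.518) but was called lower with library totals (-1.04). Near Ltbr and Tnfrsf1a on chromosome 6, the only other tested gene was Plekhg6. It was not called with TMM (-0.17, edgeR adjusted p = 0.631) and was called lower with library totals (-0.94).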
